A study of Mus musculus with 18 samples.

Results

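In mouse liver, the 7 genes described here each held an exonic RNA fragment that was protected by MDA5. It lay on an arm of an inverted repeat within their own transcript. The genes are Nsd1, Atl3, Tmem245, Dnase2a, Zfp874b, Pxmp4 and Slc35e2. They are 7 of the 55450 genes of GENCODE M21 (mouse build GRCm38) and 7 of the 598 genes with an exonic MDA5-protected peak on their own strand. In single libraries 28 genes met this rule. Only 10 did so once peaks were joined across replicates and RNase-only peaks subtracted, namely these 7 and 3 that the study cloned. The study did not clone their fragments, in contrast to those of Rnf168, Knl1 and Zkscan3, which met the same rule. The MDA5-protected peaks selected these genes, so positions, lengths and recurrence of those peaks are given as a description without a test. Input peaks were not used to choose the genes and were compared between genotypes. The input libraries did, however, serve as control when the MDA5-protected peaks were called, so input is not fully independent of the selection. RNase-only cover is given as well, but absence of RNase-only signal was part of the selection.

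The series consists of 18 lists of peaks from liver of mice aged 8 to 9 days, 3 replicates for each of 3 RNA fractions in 2 genotypes. Editing-deficient mice (Adar-/-; Mavs-/-) lack ADAR1 and the signalling adaptor MAVS, and the control mice (Mavs-/-, although their sample titles call them wild-type) lack MAVS only, so that MAVS is absent from every library. The MDA5-protected fraction was total RNA incubated with recombinant MDA5 without its CARD domains and then digested with an RNase A/T1 mix, the RNase-only fraction received RNase but no MDA5, and the input was left undigested. All were refolded total RNA, nuclear RNA included, so that the assay did not restrict the RNA to that met by MDA5 in a cell. The libraries held 1180 to 2868 peaks in the MDA5-protected, 3150 to 6094 in the RNase-only and 4326 to 8948 in the input fraction, without read counts, and the depth behind a peak is therefore unknown. Replicate 1 of the MDA5-protected editing-deficient libraries stood apart with 1636 peaks against 2768 and 2868 in its group. Among the Mavs-/- ones, replicate 1 had the most, 1829 against 1220 and 1180. Of 6 hepatocyte markers, all had an exonic input peak in every input library. No peak was called in Mavs, and Adar had a coding exon peak only in input replicates 2 and 3 of the editing-deficient mice, which is no check of a deletion, since a list of peaks does not show which exons are missing.

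MDA5 is a cytoplasmic sensor that assembles into filaments along double-stranded RNA and signals through MAVS. When a transcript carries a sequence and, further along, its reverse complement, both arms can fold back into a duplex, and retroposed elements such as SINEs, which sit in opposite orientations in many 3′ UTRs, are a common source of such arms. ADAR1 deaminates adenosines in these duplexes to inosines. The pairing is weakened where an A:U pair becomes I:U, but can be strengthened where an A:C mismatch becomes I:C. Editing by ADAR1 is known to keep self RNA from activating MDA5.

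The paired stretches below show how the arms under the protected peaks match. For each gene the best paired stretch without gaps is given, at most 30 nt long and with at least 1 of its arms under an MDA5-protected peak. Sequences come from the GENCODE M21 transcripts (GRCm38) and are written 5′ to 3′ on the strand of the gene. Capitals mark the bases that pair with the other arm as A with T or G with C. Pairs of G with T (G:U in RNA) are in lower case and are left out of the counts of paired bases and unbroken pairing.
Nsd1 upstream arm, chr13:55234517-55234546, plus strand: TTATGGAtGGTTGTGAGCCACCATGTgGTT
Nsd1 downstream arm, chr13:55234859-55234888, plus strand: AACaACATGGTGGCTCACAACCcTCCATAA
Tmem245 upstream arm, chr4:56875781-56875810, minus strand: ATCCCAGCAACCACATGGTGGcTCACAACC
Tmem245 downstream arm, chr4:56870183-56870212, minus strand: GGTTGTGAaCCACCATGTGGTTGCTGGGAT
Atl3 upstream arm, chr19:7538142-7538167, plus strand: TaTaTAGACCAcGCTGGCCTtAAgCT
Atl3 downstream arm, chr19:7538958-7538983, plus strand: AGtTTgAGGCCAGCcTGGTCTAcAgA
Zfp874b upstream arm, chr13:67473370-67473399, minus strand: TGTAtACCAGGCTGGCCTCGAACTCAaAAA
Zfp874b downstream arm, chr13:67473084-67473113, minus strand: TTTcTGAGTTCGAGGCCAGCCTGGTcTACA
Pxmp4 upstream arm, chr2:154587096-154587125, minus strand: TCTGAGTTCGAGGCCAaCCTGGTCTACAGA
Pxmp4 downstream arm, chr2:154586363-154586392, minus strand: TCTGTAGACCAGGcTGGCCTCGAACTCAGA
Slc35e2 upstream arm, chr4:155621115-155621144, plus strand: aAGTTCCAGGACAGCCAgGGCaACACAGAG
Slc35e2 downstream arm, chr4:155622280-155622309, plus strand: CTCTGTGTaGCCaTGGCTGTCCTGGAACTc
Dnase2a upstream arm, chr8:84911170-84911199, plus strand: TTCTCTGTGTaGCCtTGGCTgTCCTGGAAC
Dnase2a downstream arm, chr8:84911351-84911380, plus strand: GTTCCAGGAgAGCCAgGGCaACACAGAGAA

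In these windows 29 of 30 bases paired in Tmem245 and Pxmp4, 28 of 30 in Nsd1 and Zfp874b, 27 of 30 in Dnase2a and Slc35e2, and 21 of 26 in Atl3. Over whole arms, pairs were counted as alignments of a transcript with its own reverse complement over at least 70 columns, at an identity of at least 70%. The identity was highest, at 87.2%, in Pxmp4 and Tmem245. Pxmp4 had arms of 141 and 131 nt with 571 nt between them, and its longest unbroken pairing was 28 nt. The arms of Tmem245 were 202 and 201 nt long but lay 5356 nt apart. Nsd1 had arms of 175 and 176 nt that matched at 81.4% across a gap of 171 nt. Part of its upstream arm also formed a weaker pair with a stretch further downstream, with arms of 121 nt at 74.4% and 683 nt between them. Slc35e2 held 4 overlapping pairs at 76.2% to 82.2%, with 206 to 1054 nt between arms. Atl3 was the weakest, with 2 pairs at 70.2% and 71.9% and no unbroken pairing over 11 nt. In Dnase2a and Zfp874b the arms adjoined each other and formed a single hairpin of which the sides were 122 and 121 nt long at 70.9% identity and 229 and 228 nt long at 76.2%. The predicted duplex energy ranged from -287 kcal/mol in Tmem245 to -106.9 kcal/mol in the weaker pair of Atl3. Alignments under peaks that just missed the rule were those of Rbm25, at 69.2% over 416 columns, and Dmwd, at 68.0% over 97 columns, both below the identity, and of Osbp, with only 62 columns at 74.2%. Rbm25 met the rule through another alignment, and Atl3 and Dnase2a were the closest inside it.

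**Figure D1:**
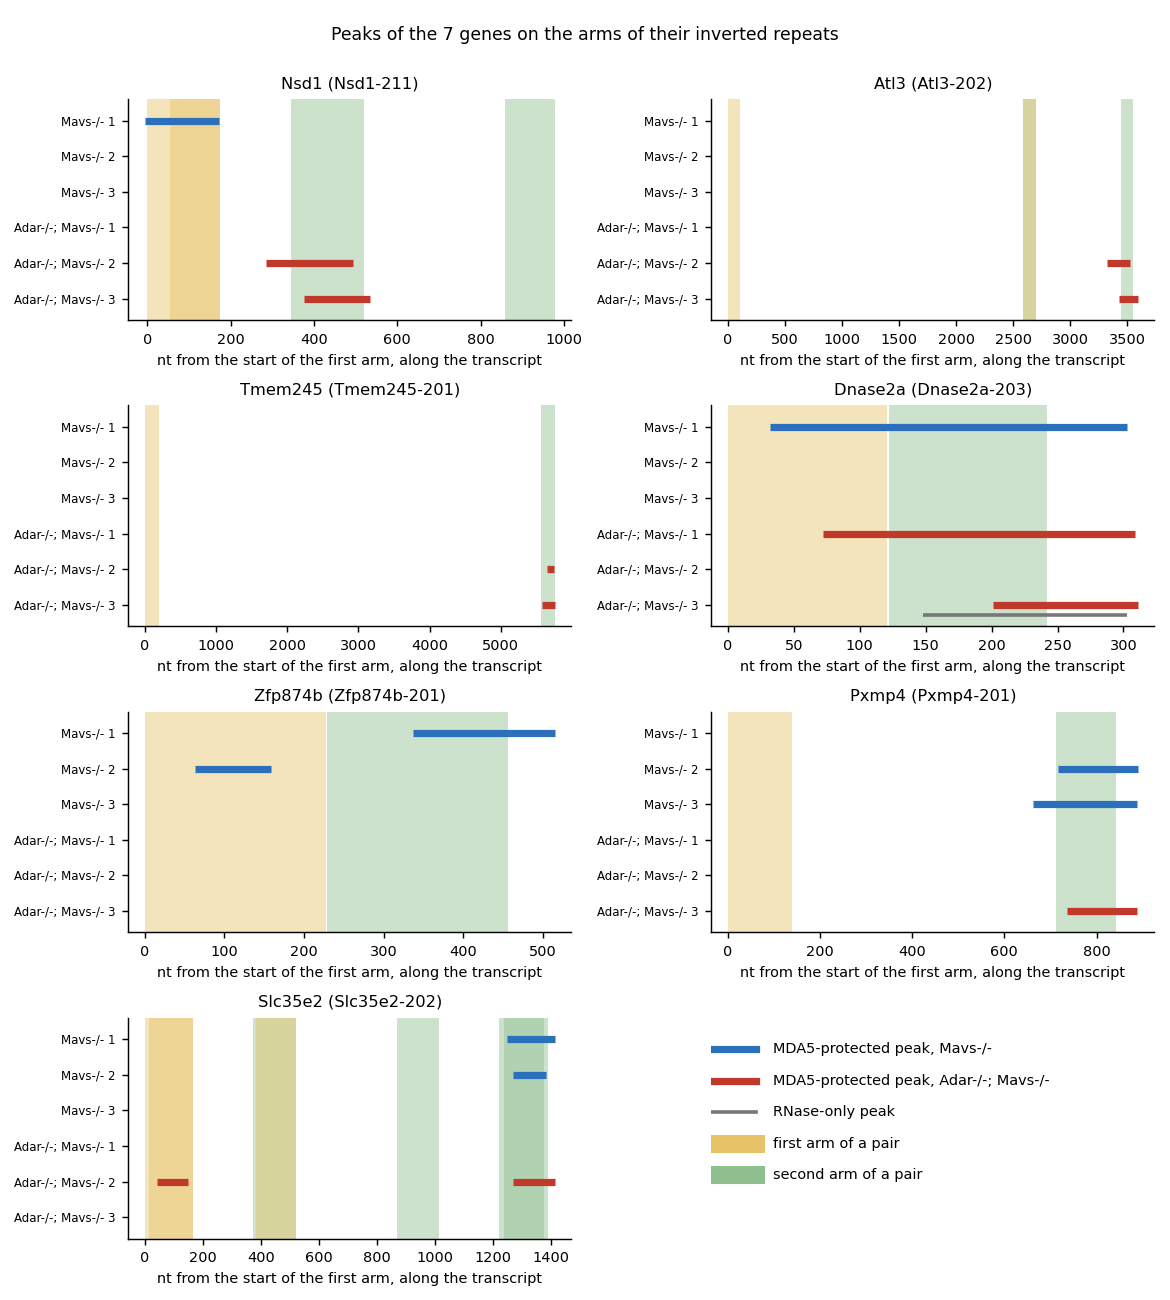
Exonic MDA5-protected peaks (thick bars, blue for Mavs-/-, red for editing-deficient) and RNase-only peaks (grey) of each gene in each of the 3 replicates per genotype, on the transcript in nt from the start of its upstream arm, with upstream arms shaded yellow and downstream arms green. Bars fall on or across an arm in every gene. In Nsd1 the genotypes lie on opposite arms of the longest pair, and in Zfp874b the 2 replicates lie on opposite arms.

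The 7 genes had 19 exonic MDA5-protected peaks, 11 in editing-deficient and 8 in Mavs-/- libraries. They were 96 to 272 nt long (median 170 nt). Of these, 16 lay in a 3′ UTR, and the remaining 3 were those of Nsd1. Among exonic peaks of all genes, 18.1% to 42.7% per MDA5-protected library were classed as 3′ UTR, a share given for scale only. All 19 touched an arm, and 17 had their middle base in it, which the rule required of at least 1 peak per gene. Their scores were low. The peak caller Genrich summarises height and width of a peak's significance in 1 score, its area, for which the authors set a minimum of 500, and the 19 areas ran from 505.75 to 950.6 with a median of 596. Only 7 exceeded the median of their own library, and the median rank was at the 28.7th percentile of the library, between the 2.38th for Slc35e2 in Mavs-/- replicate 2 and the 73.4th for Pxmp4 in editing-deficient replicate 3. Per library, 4, 3 and 1 of the genes had a peak in Mavs-/- replicates 1, 2 and 3, and 1, 4 and 5 in the editing-deficient replicates. The low count among editing-deficient libraries was in replicate 1, which also had the fewest peaks of its group. Among Mavs-/- libraries the highest count was in replicate 1, which had the most peaks of its group. The part of peak number in these counts was not tested.

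Nsd1, which encodes a histone H3 lysine 36 methyltransferase (ENSMUSG00000021488.8, chr13:55209782-55318325, plus strand), had its protected stretch not in the mature coding transcript but in Nsd1-211, an annotated transcript with a retained intron. In Mavs-/- replicate 1 the peak covered chr13:55234437-55234615 and thus 98.9% of the upstream arm. The editing-deficient peaks, at chr13:55234728-55234937 in replicate 2 and chr13:55234820-55234978 in replicate 3, covered 84.7% and 82.4% of the downstream arm and no base of the upstream arm. Hence both arms of the longest pair were recovered, each in 1 genotype, and Mavs-/- replicates 2 and 3 and editing-deficient replicate 1 had no exonic MDA5-protected peak. The downstream arm of the weaker pair had no peak in any library. Nsd1 also had intronic peaks outside these arms. An intronic stretch within chr13:55222209-55222385, was called in all 3 editing-deficient MDA5-protected libraries and in no other library. Another, around chr13:55308890-55309068, was called in Mavs-/- replicates 1 and 3 and editing-deficient replicate 3, and in RNase-only libraries of both genotypes, so this stretch also resisted digestion without MDA5.

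Zfp874b, a zinc finger protein gene (ENSMUSG00000059839.9, chr13:67471513-67484258, minus strand), had peaks in Mavs-/- libraries only. In replicate 1 the peak at chr13:67472955-67473133 lay on the downstream side of the hairpin, of which it covered 52.6%. In replicate 2 the peak at chr13:67473312-67473407 lay on the upstream side and covered 41.9%. These peaks do not overlap, and they count as recurrent only because replicates within 200 bp of each other are joined. No peak was called in Mavs-/- replicate 3 or in any editing-deficient library. Gm48899, a gene on the opposite strand, has an exon under the peak of replicate 1, but both peaks were called on the strand of Zfp874b.

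Atl3 and Tmem245 were the genes with peaks in the editing-deficient libraries alone. Atl3 encodes an atlastin, a GTPase that shapes the tubular endoplasmic reticulum (ENSMUSG00000024759.14, chr19:7494040-7539674, plus strand). Its 3′ UTR peaks were at chr19:7538819-7539022 in editing-deficient replicate 2 and chr19:7538919-7539088 in replicate 3, and they covered 79.6% and 100% of the downstream arm. The former had its middle outside the arm. Replicate 1 had an intronic Atl3 peak of 106 nt instead, and the Mavs-/- MDA5-protected libraries had none.

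Tmem245 encodes a multi-pass membrane protein (ENSMUSG00000055296.14, chr4:56866923-56947437, minus strand). Its peaks lay wholly inside the downstream arm, at chr4:56870125-56870234 in editing-deficient replicate 2 and chr4:56870123-56870295 in replicate 3, and covered 54.7% and 86.1% of it. Their 3′ edges differed by 2 nt. The upstream arm, also in the 3′ UTR, was free of peaks in all 18 libraries, as was the rest of the gene.

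Pxmp4, which encodes a peroxisomal membrane protein (ENSMUSG00000000876.11, chr2:154585758-154603708, minus strand), had 3 peaks with areas of 827.1, 713.9 and 950.6, the last being the largest of the 19. They were at chr2:154586279-154586452 and chr2:154586281-154586507 in Mavs-/- replicates 2 and 3, and at chr2:154586281-154586433 in editing-deficient replicate 3. All of them lay on the downstream arm, of which they covered 96.2%, 100% and 81.7%, and shared the same 3′ edge to within 2 nt. Again, the upstream arm had no peak in any library. An intronic peak near chr2:154600756-154600924 in editing-deficient MDA5-protected replicate 2 was also called in RNase-only replicates 2 and 3 of that genotype.

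Slc35e2, a member of the solute carrier family of nucleotide sugar transporters (ENSMUSG00000042202.15, chr4:155601416-155623340, plus strand), was the only gene with a separate peak on each arm of a pair in the same library. Editing-deficient replicate 2 had peaks at chr4:155621061-155621167 and chr4:155622288-155622432, which covered 63.7% of the upstream and 71.4% of the downstream arm of the longest pair. The downstream arm was also covered in Mavs-/- replicates 1 (chr4:155622267-155622432) and 2 (chr4:155622288-155622400), by 83.9% and 67.3%. Both genotypes therefore shared the downstream stretch, and Mavs-/- replicate 3 and editing-deficient replicates 1 and 3 had no peak.

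Dnase2a encodes the lysosomal endonuclease that degrades DNA of engulfed cells (ENSMUSG00000003812.13, chr8:84908560-84922915, plus strand). Its peaks were at chr8:84911186-84911457 in Mavs-/- replicate 1, and at chr8:84911226-84911463 and chr8:84911355-84911465 in editing-deficient replicates 1 and 3. They covered 100%, 100% and 34.7% of the downstream side of the hairpin, and 73.8%, 41.0% and none of the upstream side. It was also the only one of the genes with an exonic RNase-only peak, in editing-deficient replicate 3 at chr8:84911302-84911457, with an area of 500.7 that ranked 5588th of 5605 in its library. Each of these 4 peaks ended 4 to 12 nt before the annotated end of the coding transcript Dnase2a-201 at position 84911469. The noncoding Dnase2a-205 ends at 84911461, within 4 nt of the peak ends. Other transcripts run on, the coding Dnase2a-202 by 243 to 251 nt. Dnase2a-203, on which the arms were found, runs on by 3056 to 3064 nt.

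**Figure D2:**
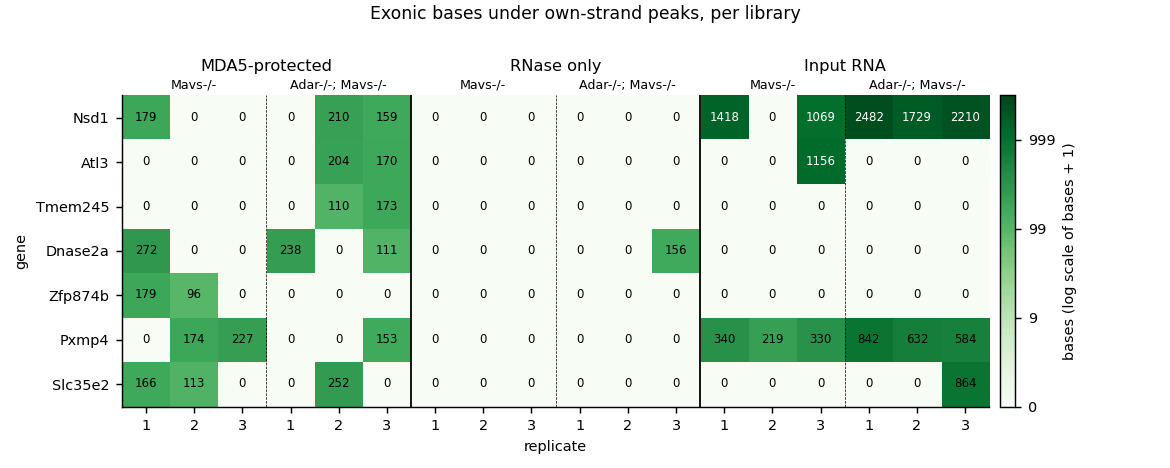
Exonic bases under own-strand peaks (number in each cell and colour, log scale of bases + 1) for the 7 genes in rows and the 18 libraries in columns, by fraction, genotype and replicate. Each gene has peaks in 2 or 3 of the 6 MDA5-protected libraries, 1 gene has a peak in 1 RNase-only library, and input peaks occur in 4 genes.

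Counted over libraries, 4 of the 7 genes (Nsd1, Atl3, Tmem245 and Dnase2a) had an exonic peak in 2 or more editing-deficient MDA5-protected libraries, against 39.1% of the 598 genes with an exonic MDA5-protected peak. For 2 of them, Atl3 and Tmem245, no Mavs-/- library had 1, which held for 10.2% of the 598. The other 3 genes (Zfp874b, Pxmp4 and Slc35e2) had a peak in 2 Mavs-/- libraries, against a background of 30.4%. An exonic RNase-only peak in any library was found for 1 of the 7 and for 70.9% of the 598, but absence of RNase-only signal was part of the selection. Each count needed 2 libraries and fell when 1 was left out, from 4 to 1 without editing-deficient replicate 2 and to 0 without replicate 3, and from 3 to 1 without Mavs-/- replicate 1 and to 0 without replicate 2. These counts follow from the rule and the shares are given for scale only.

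When peaks within 200 bp in 2 replicates were joined, RNase-only peaks subtracted and the genotypes compared base by base, following the steps stated in the study's methods, the lists made here held 1066 peaks unique to editing-deficient mice, 396 unique to Mavs-/- mice and 458 common to both. Their pieces met the rule in 10 genes only, the 7 described here and the 3 cloned ones. Of the 7, the arm pieces of Nsd1, Atl3, Tmem245 and Dnase2a were in the list unique to editing-deficient mice, those of Zfp874b, Pxmp4 and Slc35e2 in that unique to Mavs-/- mice, and none in the common list. In 4 of the 7, however, a library of the other genotype also had a peak on the same repeat. Dnase2a, Pxmp4 and Slc35e2 each had a peak over the same arm in 1 library of the other genotype, and Nsd1 on the opposite arm. Such single peaks did not enter a list, because a peak had to lie near 1 of another replicate. Only Atl3, Tmem245 and Zfp874b were without a peak in the other genotype.

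In single libraries the rule was met by 28 genes, 5.53% of the 506 genes with a peak that could be placed on a transcript. Beside the 7 and the 3 cloned genes there were 18 others, of which 5 had such a peak in more than 1 MDA5-protected library, namely Adcy1 in 3, and Gla, P2rx4, Khdrbs3 and Ston2 in 2 each. Recurrence by this count did not set the 7 apart from the others. Atl3 met the rule in 1 library only, and Dnase2a in 1 library of each genotype. Gla met it in 2 editing-deficient and Khdrbs3 in 2 Mavs-/- libraries. Gm20236, Arih1, Rbm25, Eapp and Zfp626 led those found in 1 library. Among exonic peaks of all genes, 53 of 1407 in the MDA5-protected libraries had their middle in an arm (3.77%), of which 17 belonged to the 7 genes. The share was 0.272% of 11745 peaks in RNase-only and 0.063% of 34897 in input libraries. By library it ran from 1.91% to 6.56%, from 0.0352% to 1.56% and from 0.0345% to 0.0961%, so that every MDA5-protected library was above every other library. Since arms under MDA5-protected peaks chose the genes, these shares were not tested.

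**Figure D3:**
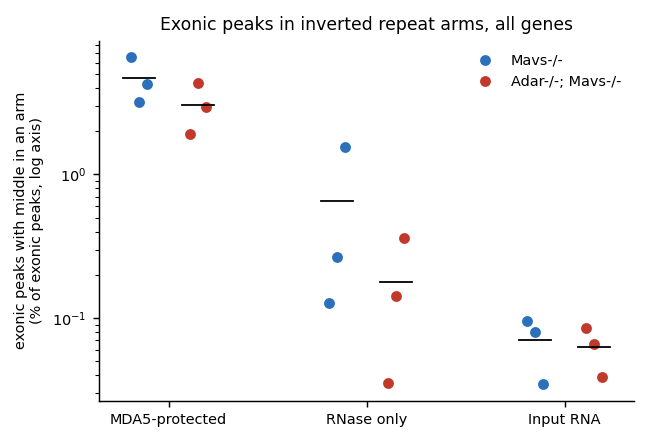
Share of exonic peaks of all genes with their middle base in an inverted repeat arm (%, log axis) in each library, by fraction, blue for Mavs-/- and red for editing-deficient, with a line at the mean of 3 replicates. The MDA5-protected libraries lie at 1.91% to 6.56%, the RNase-only libraries at 0.0352% to 1.56% and the input at 0.0345% to 0.0961%.

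The arms of the 7 genes fell into 2 groups by sequence. Those of Nsd1 and Tmem245 aligned with each other at 89.9% identity over 178 columns, and both aligned with the arms of Rnf168, a ubiquitin ligase gene of the DNA damage response, at 80.1% and 85.3%. The arms of Atl3, Dnase2a, Zfp874b, Pxmp4 and Slc35e2 formed the other group, together with Knl1, a kinetochore gene. Within it the identities ranged from 71.6% between Atl3 and Slc35e2 to 96.0% between Dnase2a and Pxmp4. No alignment of 50 columns or more linked the groups, and the arms of Zkscan3 aligned with none of the others. The 12-nt word GGCCAGCCTGGT, or its reverse complement ACCAGGCTGGCC, was present in the arms of all 5 members of the latter group and of Knl1, and on either strand of 2.63% of 141767 annotated transcripts. The word TTGCTGGGATTT, or AAATCCCAGCAA, was shared by Nsd1, Tmem245 and Rnf168 and found in 0.909% of transcripts. Arms of Slc35e2 and Zfp874b matched the genes of 7SL RNA, the ancestor of B1 SINEs, over 51 to 61 columns at 82.0% to 88.2%.

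**Figure D4:**
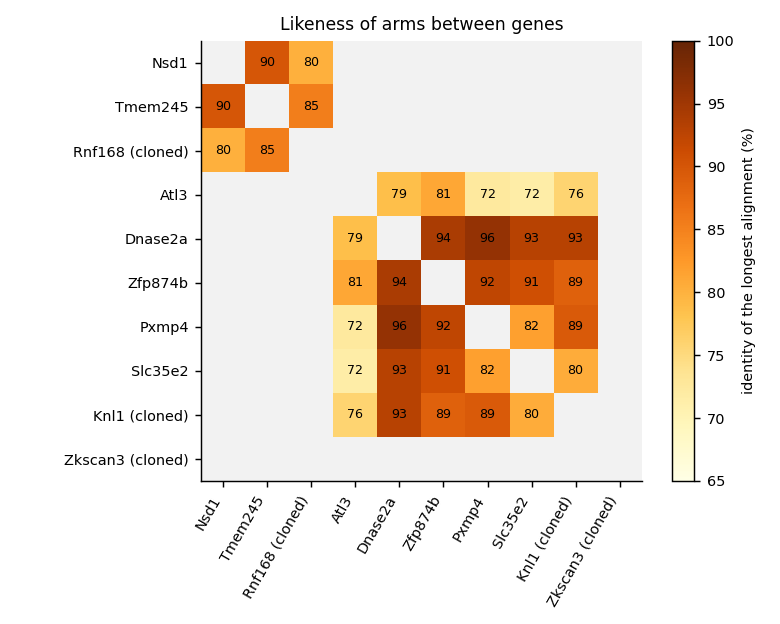
Identity (%) of the longest alignment of at least 50 columns between the arms of each pair of genes, for the 7 genes and the 3 cloned by the study, with grey where there was none. Nsd1, Tmem245 and Rnf168 form 1 block (80% to 90%), Atl3, Dnase2a, Zfp874b, Pxmp4, Slc35e2 and Knl1 the other (72% to 96%).

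Stretches like most of these arms are frequent, which bears on where short reads can be placed. Stretches at 70% identity or more over at least 80% of the arm occurred in transcripts of 1910 and 1917 other genes for the arms of Tmem245 and of 4449 and 3987 for those of Pxmp4. They were rare for the sides of the Zfp874b hairpin, with 16 and 35 other genes, and for the downstream side of Dnase2a, with 20. Close copies, at 95% or more over at least 75 nt, were unevenly spread. For Tmem245 the arm without a peak had close copies in 52 other genes and the protected arm in 1, for Pxmp4 the numbers were 217 and 0, and in Dnase2a the upstream side, with less cover, had 403 and the downstream side 0. In Atl3 and in the longest pair of Slc35e2 it was the reverse, since the arm with more peaks had 19 and 31 and the other 0. Neither arm of the longest pair of Nsd1 had a close copy in transcripts of other genes. The upstream and downstream sides of the Zfp874b hairpin had close copies in 10 and 7. Copies elsewhere in the genome, to which the reads were aligned, were not counted, so these numbers do not show how uniquely reads could be placed. The part of read placement in the recovery of 1 arm was not tested. Adenosine content differed between arms in both directions, and its part in the recovery of 1 arm was not tested. The more covered arm had less A than its partner in Tmem245 (24.4% against 34.7%), Pxmp4 (16.0% against 34.8%) and Slc35e2 (17.3% against 33.9%), but more in Atl3 (34.3% against 22.3%) and Dnase2a (26.4% against 14.8%). In Nsd1 (26.3% upstream, 31.3% downstream) and Zfp874b (21.8% and 37.7%) each arm was covered in a different library.

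In its longest pair, Rnf168 had arms of 132 nt at 87.9% identity, Knl1 of 162 and 164 nt at 84.8% and Zkscan3 of 169 and 171 nt at 82.8%, which is within the range of the 7 genes in length and, apart from Rnf168, in identity. Rnf168 and Zkscan3 had a peak in 2 editing-deficient libraries and in 1 Mavs-/- library each, and Knl1 in 2 and 3. On the upstream arm of Knl1, however, Mavs-/- replicates 2 and 3 also had RNase-only peaks, with areas of 925.1 and 595.1, over the stretch of 2 of its 3 Mavs-/- peaks, and after subtraction 11 nt were left in the Mavs-/- list. The MDA5-protected peak areas of the cloned genes, 502.6 to 1013, covered nearly the same range as those of the 7. As both sets were selected on these peaks, the sets were not compared by a test.

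The input libraries show whether the genes were recovered in liver RNA before digestion. Nsd1, Atl3, Pxmp4 and Slc35e2 had an exonic input peak in at least 1 library, 4 of the 7 against 43.3% of the 598 genes, and Tmem245, Dnase2a and Zfp874b had none in any of the 6. In Nsd1 input peaks covered 1418, 0 and 1069 exonic bases in the Mavs-/- replicates and 2482, 1729 and 2210 in the editing-deficient ones. All editing-deficient values were above all Mavs-/- values, with means of 2140 ± 381 and 829 ± 739 bases (SD, n = 3 each; exact permutation p = 0.1, two-sided, which is the lower limit with 3 against 3). In Pxmp4 they covered 340, 219 and 330 bases in the Mavs-/- and 842, 632 and 584 in the editing-deficient replicates. Here too the groups did not overlap, with means of 296 ± 67.2 and 686 ± 137 bases (SD, n = 3 each; exact permutation test, p = 0.1). Such separation in this direction was found in 16.5% of 5274 genes with an exonic input peak, and for 2 of the 4 genes here. Input lists were also longer in editing-deficient (6991 to 8948 peaks) than in Mavs-/- mice (4326 to 6625). With equal numbers of the strongest peaks per library, a comparison added after the data were seen, Pxmp4 kept a difference of 257 bases (exact permutation p = 0.1) and Nsd1 of 835 bases (p = 0.3). With a minimum area of 1000, the differences were 273 bases in Pxmp4 and 886 in Nsd1 (exact permutation p = 0.4 for both), and the genotypes were no longer separated.

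Atl3 had input cover in Mavs-/- replicate 3 only, 1156 bases, which included the whole downstream arm of its protected pair, and Slc35e2 in editing-deficient replicate 3 only, 864 bases (exact permutation p = 1 for both). Apart from Atl3, no input peak touched an arm of the 7 genes. The input peaks of Nsd1 lay at other exons, between positions 55245678 and 55315330, and those of Pxmp4 upstream of its arms. For RNase-only cover, Dnase2a had 156 bases in 1 library (exact permutation p = 1), and the other genes had no exonic base. Because absence of RNase-only signal was part of the selection, this test cannot decide whether the genotypes differ. Fewer cells of a type and less RNA per cell cannot be told apart in these libraries. Alas2, 1 of 3 erythroid markers, had an input peak in all Mavs-/- and in no editing-deficient library, while Hba-a1 and Hbb-bs had 1 in all 6. Of the other cell type markers, Clec4f of macrophages was called in all 6, Stab2 and Col1a1 in 5 each, and Cd68, Adgre1, Pecam1 and Lrat in none. The part of cell composition in the input values was not tested.

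**Figure D5:**
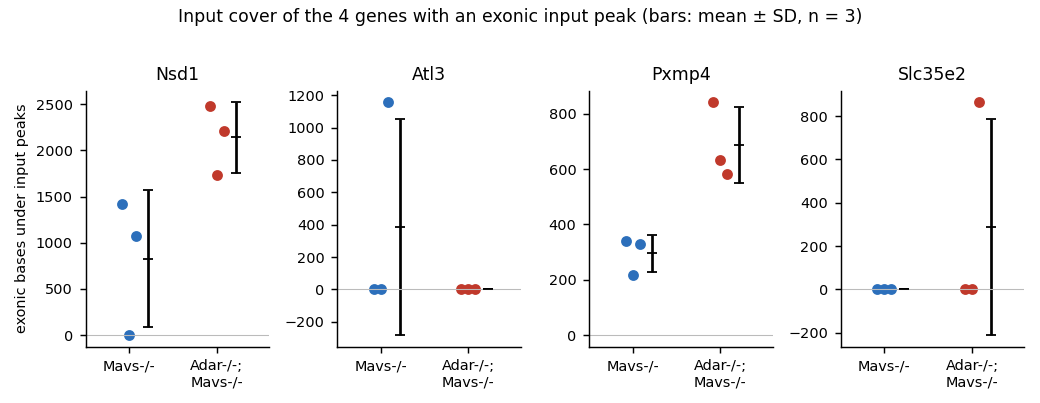
Exonic bases under input peaks of the 4 genes with such a peak, 1 point per library, blue for Mavs-/- and red for editing-deficient, with mean ± SD (n = 3). Nsd1 (0 to 1418 against 1729 to 2482) and Pxmp4 (219 to 340 against 584 to 842) do not overlap between genotypes, and Atl3 and Slc35e2 have cover in 1 library each.

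Among paralogues and relatives of the 7 genes, none of 11 (Nsd2 and Nsd3, Atl1 and Atl2, Dnase2b, Zfp874a, Pxmp2 and Mpv17, and Slc35e1, Slc35e3 and Slc35e4) had an exonic MDA5-protected peak on its own strand, although 5 of them had an exonic input peak and 2 an exonic RNase-only peak. Slc35e1 had input peaks in 5 of 6 libraries, more than Slc35e2. Intronic MDA5-protected peaks were found in 2 relatives, Atl2 in 5 of 6 libraries (53 to 71 bases) and Pxmp2 in editing-deficient replicates 2 and 3 (183 and 200 bases).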

How the data were processed

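Libraries were assigned to groups from the genotype and fraction of their labels. According to the methods, the authors removed adapters with Trim Galore 0.6.6, used NextGenMap for alignment to GRCm38 and Genrich 0.6.1 for peaks on each strand, with input as the control of the digested libraries, an adjusted P-value of 0.01 and a minimum area of 500. The deposited score of a peak is the area under the curve, which was used only within a library, and the deposited −log10 P-values and −log10 adjusted P-values are those the authors obtained with Genrich (weakest adjusted value 3.12). The summit offsets were not used.

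Peaks were assigned to GENCODE M21 genes on their own strand. Peaks touching an exon of any transcript were exonic, classed in the order 5′ UTR, 3′ UTR, coding exon, other exon. Arms were found with blastn (word size 11) of the longest transcript of at most 30000 nt that holds the middle of the peak, and joined lists were made with a distance of 200 bp and a minimum of 10 bp. For covered bases, an exact permutation test (two-sided) set 3 libraries against 3. The labels number the replicates without naming animals, so p-values measure the spread between libraries. On simulated data, 100 of 100 planted inverted repeats were recovered. This count is not split by identity, gaps or distance between arms. It therefore does not show how well pairs near the identity limit, such as those of Atl3 and Dnase2a, are recovered, nor arms as far apart as those of Tmem245. The members and lists were chosen with earlier results of these data known. Named genes were the 7, the 3 cloned, their 11 relatives, Adar, Mavs, the marker genes and the 10 other genes with arm peaks in the most MDA5-protected libraries, ties by area rank. Genes just outside the thresholds were named after their values were seen. A repeat annotation, editing levels and genome sequence were not used here. Alternatives were other area, P-value, exon, strand, arm, joining and subtraction settings, each replicate left out and the replicate number as a block. Equal numbers of peaks per library and the joined Mavs-/- list under 2 settings were added later. The tools were BLAST 2.17.0, ViennaRNA 2.7.2, scipy 1.17.1, numpy 2.4.6, matplotlib 3.10.9 and Python 3.11.15.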

Additional observations from a re-analysis of the deposited data

Results flagged for a closer look

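One signal lay outside the own-strand peaks described above. In editing-deficient replicate 2, an MDA5-protected peak of 92 nt was called on the strand opposite to Nsd1, at chr13:55212007-55212098, with an area of 545.9, and no Mavs-/- library of any fraction had an opposite-strand peak within Nsd1.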

How the results depend on the processing

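Peaks of the 7 genes were weak, so that a minimum area of 1000 left 0 of them in 2 or more libraries of either genotype, 0 in the joined editing-deficient list, 0 in RNase-only and 2 in input libraries (Nsd1 and Pxmp4, with differences of 886 and 273 bases at exact permutation p = 0.4), and set the Atl3, Slc35e2 and Dnase2a differences in cover to 0. Demanding an identity of 80% left 4 genes with a peak middle in an arm (Nsd1, Tmem245, Pxmp4 and Slc35e2), whereas all 7 remained with arms of 100 nt, any transcript or any base of the peak. With a replicate left out, 0 to 3 genes had a peak in both remaining editing-deficient libraries (1, Dnase2a, without replicate 2 and 0 without replicate 3), 0 to 2 in both remaining Mavs-/- libraries (1, Pxmp4, without replicate 1 and 0 without replicate 2), 0 to 3 were in the joined list, 0 to 1 in RNase-only and 3 to 4 in input libraries. The difference in input cover then ranged from 897 to 1606 bases in Nsd1, 312 to 441 in Pxmp4, -578 to 0 in Atl3 and 0 to 432 in Slc35e2, and in RNase-only cover from 0 to 78 in Dnase2a. Atl3 and Slc35e2 rested on Mavs-/- and editing-deficient replicate 3 alone. When each library was limited to an equal number of peaks, the Slc35e2 input and Dnase2a RNase-only differences were 0. With introns included, RNase-only cover differed by 26.3 bases in Nsd1 and 97 in Pxmp4 (exact permutation p = 1 and 0.4). An adjusted P-value of 0.001 (which every deposited peak passed), at least 50% of a peak in exons and strands ignored changed none of the counts over libraries or in the joined editing-deficient list, nor did no subtraction and overlap instead of 200 bp change the 4 genes of that list. In the joined Mavs-/- list, run under these last settings after the data were seen, all 3 genes remained without subtraction, and 2 (Pxmp4 and Slc35e2) with overlap, which Zfp874b did not meet. As paired values, with the replicate block, Nsd1 and Pxmp4 input cover kept 1311 and 390 bases (exact sign-flip p = 0.25, the smallest that 3 pairs allow), and same-numbered libraries did not deviate together (correlations -0.0449 to 0.0028 over 5274 genes). The lists hold no read counts, which limits every absence of a peak to its not being called.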
